A study of Mus musculus with 12 samples.

Results

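The integrated stress response in liver macrophage preparations of mice was followed through 10 genes of the ATF4 pathway, namely Atf4, Ddit3, Asns, Trib3, Chac1, Psat1, Phgdh, Shmt2, Sesn2 and Atf5. They were chosen by name, as known genes of this pathway, out of 25700 genes in the count table. The choice was made with earlier results of these data known. All 10 were present, and all 10 passed the filter on low counts. In this response, stress-sensing kinases phosphorylate the translation factor eIF2, which lowers protein synthesis as a whole while the transcription factor ATF4 is translated more efficiently. ATF4 then drives genes for amino acid synthesis, amino acid import and tRNA charging. Macrophages use the same enzymes to supply serine, glycine and one-carbon units during activation. RNA abundance does not measure ATF4 protein.

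The 4 groups of 3 libraries were sequenced in bulk: sph/sph mice given anti-CD40, WT mice given anti-CD40, sph/sph mice given saline and WT mice given saline. The genotypes are Spta sph/sph, whose defect in the red cell protein alpha-spectrin gives fragile red cells and haemolytic anaemia, and Spta wt/wt, the littermate controls. The agonistic antibody to CD40, a receptor that activates macrophages and dendritic cells, was injected into the peritoneum at 20 mg/kg, and cells were taken 30 h later. The mice were 8 to 10 weeks old. The cells are non-parenchymal liver cells drawn out with beads against the macrophage surface protein F4/80, so other liver and blood cells may be present, and the sph/sph defect was in the whole animal and not in macrophages alone.

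Depth ran from 14991250 to 18984067 counts per library, and 13844 genes were tested. The labels give male mice, whereas 4 of the 12 libraries, the A library of each group, held 0 counts of 4 Y-linked genes and the other 8 held between 2436 and 4055. The calls below are therefore also given without those 4 libraries, which leaves 2 per group. A fit of all 12 libraries with a term for sex, read from these genes, called 0 members in the sph/sph response to anti-CD40, 5 in the WT response, 1 between genotypes under each treatment and 2 for the interaction; Trib3 in WT (edgeR adjusted p = 0.0520) and the interaction of Phgdh (edgeR adjusted p = 0.0574) were the member calls it lost. The table's column names call the control genotype heterozygous, whereas the labels say wild type, and it is called WT here. Letters A to C follow the order of the columns within a group and are names only. Within each treatment 1 sph/sph and 1 WT column, both named A, carry a common identification number that no source explains; columns B and C share no number, so libraries were not paired. Levels of macrophage markers differed between the groups. Adgre1, the gene of F4/80 itself, averaged 1505 ± 635 CPM (counts scaled to a common library total) in sph/sph anti-CD40, 88.0 ± 73.6 in WT anti-CD40, 1741 ± 269.7 in sph/sph saline and 1777 ± 184 in WT saline (SD, n = 3 each). The summed level of 10 macrophage markers, none at 0 in any group, lay between 20959 and 27088 CPM in sph/sph anti-CD40, between 6788 and 12308 in WT anti-CD40, between 31698 and 45601 in sph/sph saline and between 36981 and 42491 in WT saline. In bulk RNA, fewer cells of a type and less RNA per cell cannot be told apart.

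ATF4 binds DNA with a C/EBP partner at a composite element, searched here as TGATGNAA on both strands. The search used RefSeq promoter windows of build GRCm38.p6, each from 250 bases before to 50 after a transcription start. All 10 genes had a window, 12 windows in all, and 3 windows held the element, those of Asns, Trib3 and Chac1. It occurred in 3.97% of all 32851 promoter windows and in 4.51% of genes. The stretch of 30 bases around each match follows, in the direction of the gene, with the element in capitals. They are shown because they are the only matches in the 12 windows. Of these genes, Asns and Trib3 rose with anti-CD40 in WT and Chac1 was not called. Atf4, Psat1 and Phgdh also rose in WT, and their windows held no match.

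Asns (chr6:7693214-7693243, minus strand): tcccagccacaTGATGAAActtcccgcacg

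Trib3 (chr2:152344028-152344057, minus strand): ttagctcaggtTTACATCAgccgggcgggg

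Chac1 (chr2:119351038-119351067, plus strand): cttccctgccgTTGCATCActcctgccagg

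In Asns the element reads in the direction of the gene and its first base lies 23 bases before the RefSeq start. In Trib3 it lies on the other strand and begins 14 bases after the start. In Chac1 it is also on the other strand, 193 bases before the start. A match is a description of letters in these windows, and the absence of one in the other windows says nothing of ATF4 at those genes.

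The members stood at very different levels. Compared per length, in RPKM (CPM per kilobase of exon), Atf4 was the highest of the 10 in every group and did not overlap the next gene: 60.8 ± 11.4 in sph/sph anti-CD40, 96.7 ± 6.29 in WT anti-CD40, 50.9 ± 4.84 in sph/sph saline and 39.0 ± 7.51 in WT saline (SD, n = 3 each). Chac1, which encodes a glutathione-degrading enzyme, was last in 3 groups. In WT saline the last was Phgdh, the first enzyme of serine synthesis from glucose, at 0.143 ± 0.0863 RPKM. The next-lowest in WT saline was Asns at 0.268 ± 0.0522 RPKM, and those ranges did not touch. In WT anti-CD40 Phgdh was number 5 at 12.3 ± 5.76 RPKM, within the range of its neighbours Psat1 (12.8 ± 2.99) and Atf5 (8.98 ± 3.10). In sph/sph saline the neighbours Asns, Psat1, Phgdh and Trib3, at 2.54 ± 1.87, 2.21 ± 1.04, 1.56 ± 1.30 and 1.25 ± 0.296 RPKM, overlapped each with the next.

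**Figure D1:**
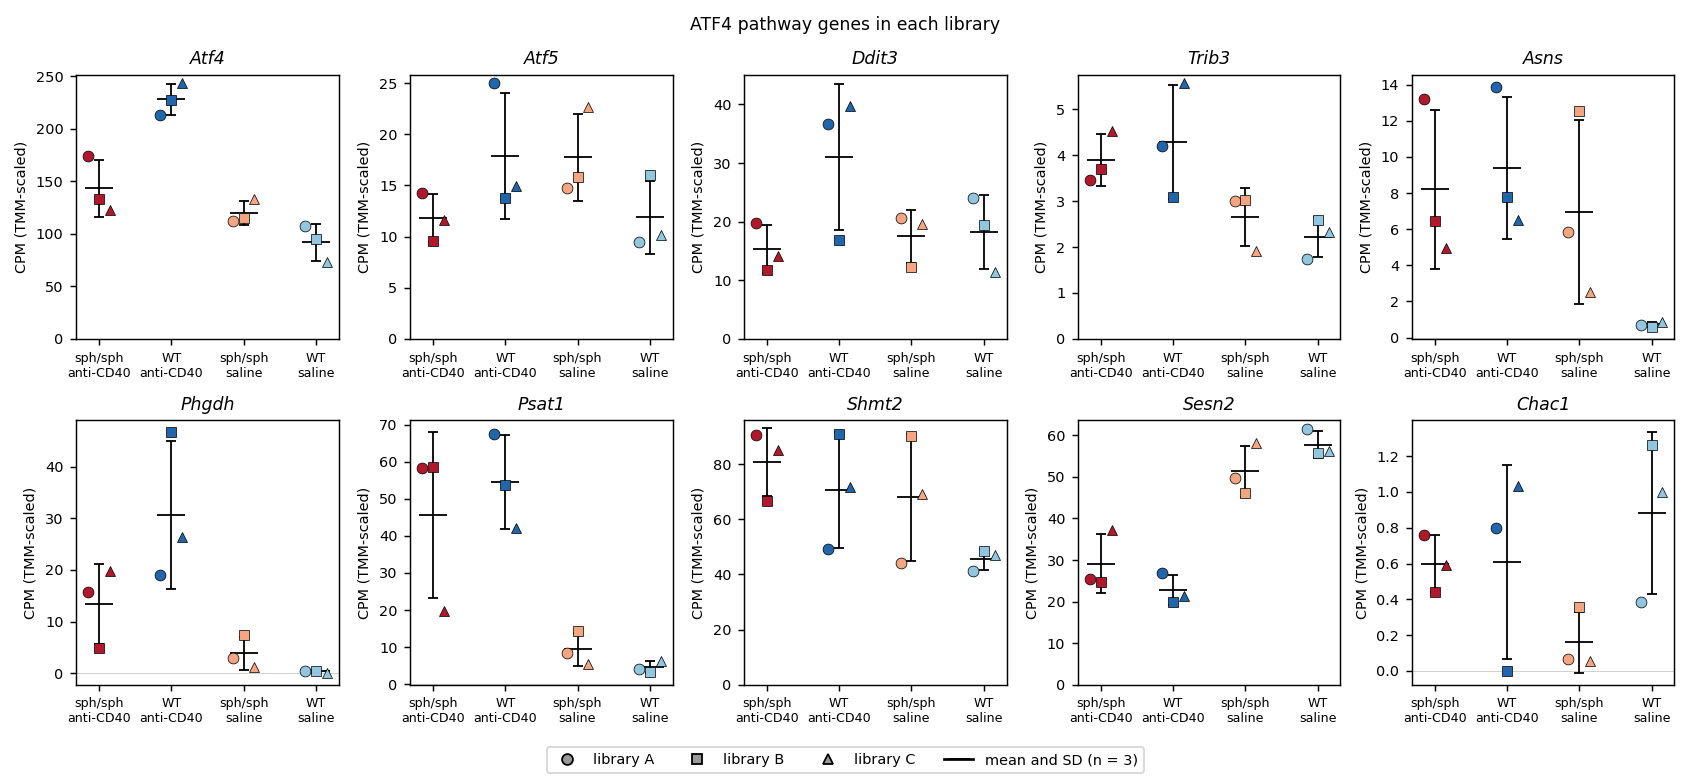
Level of each of the 10 ATF4 pathway genes in each of the 12 libraries, in CPM on linear axes, by group; marker shape gives the library letter, and the dash and bar are the mean and SD of 3 libraries. Asns and Phgdh sit lowest in the 3 WT saline libraries, and Sesn2 sits lower in both anti-CD40 groups than in both saline groups.

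With anti-CD40 in WT mice 6 of the 10 genes changed. Of these, 5 rose (Atf4, Asns, Trib3, Psat1 and Phgdh) and 1 fell (Sesn2) at an edgeR adjusted p under 0.05, against a background in which 19.4% of all genes tested rose, 19.7% fell and 39.2% changed either way. The median log2 fold of the 10 was 0.86 and that of all genes 0.05. The 3 largest rises were in enzymes that make serine and asparagine.

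Atf4 itself, on chromosome 15 (80255184 to 80257541, plus strand, GRCm38), had 214, 227 and 243 CPM in WT anti-CD40 A, B and C, against 108, 94.9 and 72.9 CPM in the 3 WT saline libraries in the same letter order. All 3 treated libraries lay above all 3 saline libraries, with little spread among the treated. The log2 fold was 1.31 ± 0.18 (SE, 2.48-fold; edgeR adjusted p = 0.000489), and 1.48 without the A libraries (edgeR adjusted p = 0.00744).

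Phgdh (chromosome 3, 98313170 to 98339990, minus strand) had 18.9, 46.7 and 26.4 CPM in WT anti-CD40, against 0.513, 0.439 and 0.111 CPM in WT saline. The saline values rest on 8, 8 and 2 counts. The groups were far apart, with a log2 fold of 6.42 ± 0.90 (85.6-fold; edgeR adjusted p = 0.000544), the largest of the 10. Psat1, the aminotransferase that acts after PHGDH, lies on chromosome 19 (15904678 to 15947337, minus strand). It had 67.6, 53.9 and 42.1 CPM in WT anti-CD40, against 4.18, 3.41 and 6.37 CPM in WT saline. The groups did not overlap, and the log2 fold was 3.55 ± 0.49 (11.7-fold; edgeR adjusted p = 0.000523).

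Asns, the synthetase that makes asparagine from aspartate and glutamine, lies on chromosome 6 (7675169 to 7693254, minus strand). It had 13.9, 7.77 and 6.5 CPM in WT anti-CD40, against 0.706, 0.605 and 0.887 CPM in WT saline. Every treated library was above every saline library, with the A library the highest of the treated, and the log2 fold was 3.66 ± 0.64 (12.7-fold; edgeR adjusted p = 0.00176). Without the A libraries the 3 enzymes stayed called, with log2 folds of 7.01 for Phgdh, 3.29 for Psat1 and 3.24 for Asns (edgeR adjusted p = 0.0187, 0.0262 and 0.0354).

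Shmt2, the mitochondrial enzyme that splits serine into glycine and a one-carbon unit, had 49.1, 91.1 and 71.6 CPM in WT anti-CD40, against 41.3, 48.4 and 46.9 CPM in WT saline. The lowest treated library lay just above the highest saline library, and the gene did not pass the test (log2 fold 0.63 ± 0.27; edgeR adjusted p = 0.0897).

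Trib3, a pseudokinase induced by ATF4 that restrains it in turn, lies on chromosome 2 (152337422 to 152344032, minus strand). It had 4.19, 3.10 and 5.56 CPM in WT anti-CD40, against 1.74, 2.58 and 2.33 CPM in WT saline. The groups did not overlap but lay close, with a log2 fold of 0.95 ± 0.33 (1.93-fold; edgeR adjusted p = 0.0433). This call was the weakest of the 6. It held in 4 of the 12 fits that each left out 1 library and ended without any 1 of WT saline A, B or C, sph/sph saline A or B, WT anti-CD40 A or C, or sph/sph anti-CD40 B, and without all A libraries (0.81; edgeR adjusted p = 0.246). The calls of Atf4, Asns, Psat1, Phgdh and Sesn2 held in all 12.

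Sesn2, a leucine sensor that restrains the growth kinase complex mTORC1 and is an ATF4 target, went the other way. It lies on chromosome 4 (132492032 to 132510501, minus strand). It had 26.8, 19.9 and 21.4 CPM in WT anti-CD40, against 61.5, 55.7 and 56.2 CPM in WT saline. The groups were well apart, and the log2 fold was -1.35 ± 0.19 (2.55-fold lower; edgeR adjusted p = 0.000468). Without the A libraries it was -1.44 (edgeR adjusted p = 0.0120).

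The transcription factors Ddit3 (CHOP) and Atf5, which act beside or after ATF4, and Chac1, a target of CHOP and ATF4, did not pass the test in WT. Ddit3 (chromosome 10, 127290774 to 127296288, plus strand) had 36.7, 16.8 and 39.7 CPM in WT anti-CD40, against 24.0, 19.4 and 11.5 CPM in WT saline, and the groups overlapped (log2 fold 0.77 ± 0.38; edgeR adjusted p = 0.128). Atf5 (chromosome 7, 44812256 to 44816658, minus strand) had 25, 13.8 and 14.9 CPM in WT anti-CD40, against 9.45, 16 and 10.2 CPM in WT saline (0.59 ± 0.30; edgeR adjusted p = 0.143). Chac1 (chromosome 2, 119351229 to 119354381, plus strand) had 12, 0 and 21 counts in WT anti-CD40, against 6, 23 and 18 counts in WT saline, which is too few to separate the groups. The annotated exons of Ddit3 overlap those of Mars on the other strand by 68 of 1713 bases and those of Gm4189 by 13. A second entry named Ddit3 overlaps them on the same strand by 105 bases. On the other strand, the exons of Atf5 overlap Nup62 and Il4i1 by 82 of 1993, and those of Shmt2 overlap Ndufa4l2 by 32 of 3109. Whether reads were counted by strand is not stated, so values of these 3 genes are uncertain to that extent. The overlap with the second Ddit3 entry remains however strand was used.

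Other cells' markers moved with the WT response. The summed level of 8 T and NK cell markers was 167, 1238 and 473 CPM in WT anti-CD40 A, B and C, against 2.44, 1.81 and 1.83 CPM in WT saline, and all 8 rose. In WT anti-CD40, Phgdh had the order of that sum, highest in B and lowest in A, while Psat1 and Asns were highest in A. The 6 recruited monocyte markers summed to 1001 to 2069 CPM in WT anti-CD40, against 117 to 266 CPM in WT saline, and 9 of 10 macrophage markers fell. The part of these cells in the members' changes was not tested.

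In sph/sph mice, anti-CD40 called none of the 10 genes by edgeR's quasi-likelihood test. At an unadjusted p under 0.05 were 3 of them, beside 2901 of all 13844 genes tested. Few genes were called in this comparison with all 12 libraries: 0.578% of those tested rose, 0.202% fell and 0.78% changed either way. That number depended on single libraries: fits that each left out 1 called from 0 to 2372 genes and from 0 to 2 of the 10. The median log2 fold of the 10 was 0.25 and that of all genes 0.04. DESeq2 called 2 of the 10, Psat1 and Sesn2, beside 1372 of all genes, and limma-voom none of the 10.

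Psat1 had 58.3, 58.6 and 19.9 CPM in sph/sph anti-CD40 A, B and C, against 8.45, 14.3 and 5.53 CPM in sph/sph saline. All treated libraries were above all saline libraries, with C well under the other two, and the log2 fold was 2.28 ± 0.47 (edgeR adjusted p = 0.0540). Sesn2 had 25.4, 24.6 and 37.3 CPM in sph/sph anti-CD40, against 49.8, 46.2 and 58.1 CPM in sph/sph saline. Its groups did not overlap either (log2 fold -0.82 ± 0.18; edgeR adjusted p = 0.0668). Both genes missed the threshold in every fit that left out 1 library except that without sph/sph anti-CD40 C, where both passed it (edgeR adjusted p = 0.00298 for Psat1 and 0.00383 for Sesn2). That library stood apart in its markers, with B cell markers at 1613 CPM, against 40.9 to 101 CPM in the other two sph/sph anti-CD40 libraries.

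The other members in sph/sph lay within or near the spread. Phgdh had 15.8, 4.81 and 19.8 CPM in sph/sph anti-CD40, against 2.93, 7.48 and 1.22 CPM in sph/sph saline, with overlap (1.80 ± 0.71; edgeR adjusted p = 0.188). Asns had 13.2, 6.43 and 4.96 CPM in sph/sph anti-CD40, against 5.85, 12.5 and 2.50 CPM in sph/sph saline, with broad overlap (0.23 ± 0.56; edgeR adjusted p = 0.843). Atf4 had 174, 133 and 123 CPM in sph/sph anti-CD40, against 112, 115 and 133 CPM in sph/sph saline (0.26 ± 0.18; edgeR adjusted p = 0.431). Trib3 lay between 3.45 and 4.53 CPM in sph/sph anti-CD40 and between 1.92 and 3.03 CPM in sph/sph saline without overlap, and Chac1 had 28 counts over the 3 treated libraries and 8 over the 3 saline libraries. Neither passed the test.

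**Figure D2:**
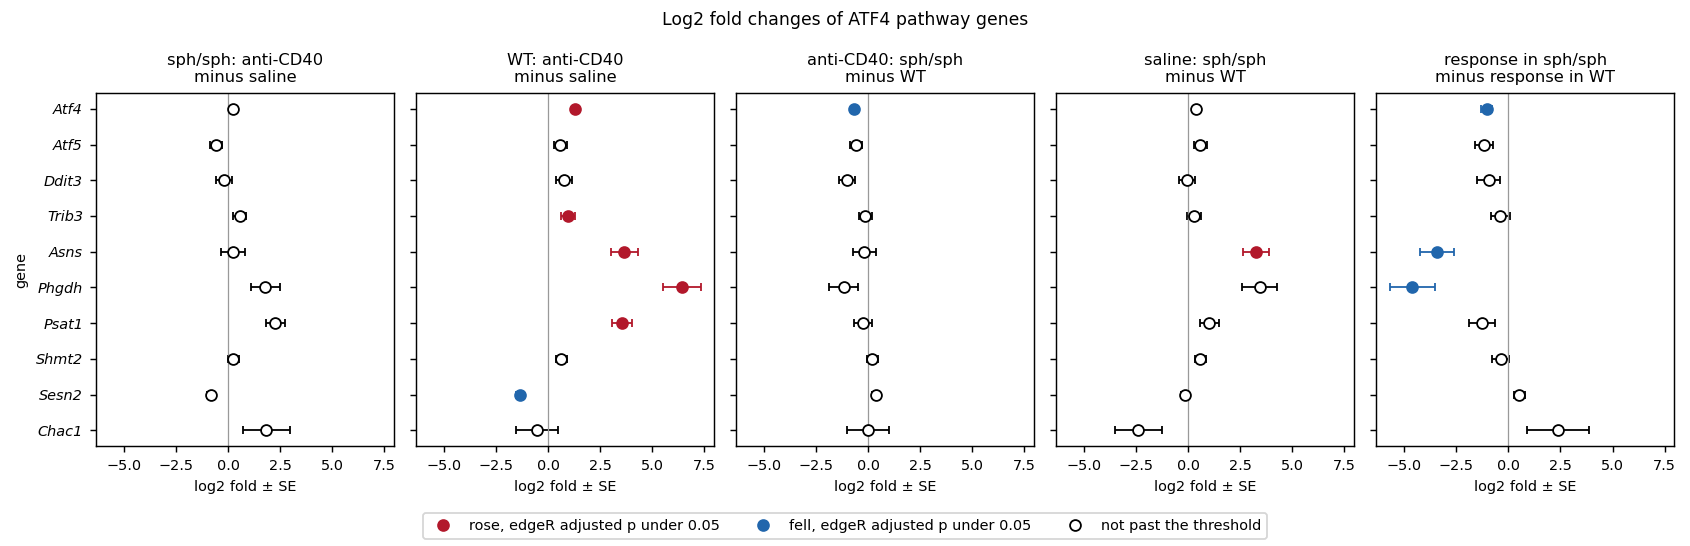
Log2 fold of each of the 10 genes (points; bars are ± 1 approximate SE) for anti-CD40 against saline in sph/sph and in WT, for sph/sph against WT under anti-CD40 and under saline, and for the response in sph/sph minus that in WT; filled points passed an edgeR adjusted p of 0.05. Most filled points belong to the WT response, with Phgdh at 6.42 the farthest from 0.

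The size of the response differed between the genotypes for 3 of the 10 genes, and in each it was smaller in sph/sph. The interaction, which is the log2 response in sph/sph minus that in WT, was -4.62 ± 1.08 for Phgdh (edgeR adjusted p = 0.0409), -3.43 ± 0.83 for Asns (edgeR adjusted p = 0.0470) and -1.05 ± 0.25 for Atf4 (edgeR adjusted p = 0.0449). Each value joins the genotype difference under saline with that under anti-CD40, both given below. For Asns and Phgdh the larger part was a higher sph/sph level under saline, called for Asns only. For Atf4 it was a lower sph/sph level under anti-CD40. Among all genes tested, 4.3% had a called interaction, 1.12% with a negative and 3.18% with a positive sign. The median over the 10 genes was -1.01, and over all genes 0.05. For Psat1 the interaction was -1.27 ± 0.64 (edgeR adjusted p = 0.322), so a difference between genotypes in its response was not detectable. All 3 calls were close to the threshold: leaving out single libraries kept that of Atf4 in 2, Asns in 2 and Phgdh in 3 of 12 fits, with adjusted p up to 0.116, 0.119 and 0.107. Without the A libraries none was called, with values of -1.44 for Atf4, -3.64 for Asns and -5.51 for Phgdh (edgeR adjusted p = 0.0863, 0.188 and 0.190). The sign was negative in every one of those fits, but they reuse the libraries that gave the calls, so this is no separate support.

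**Figure D3:**
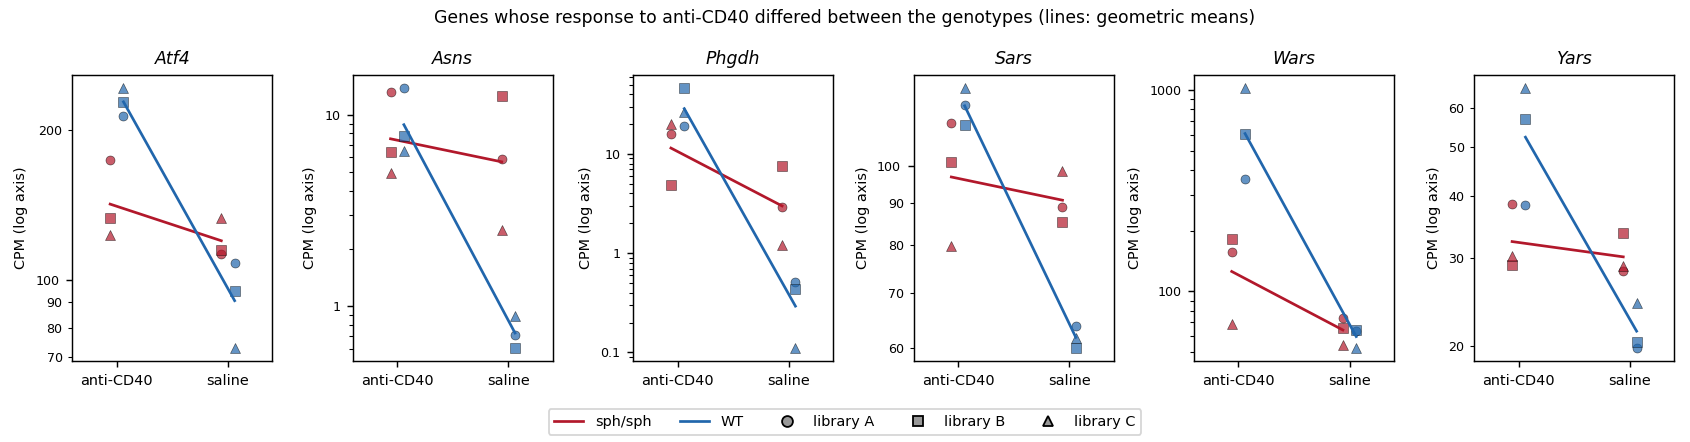
Levels in CPM (log axes) of the 6 pathway genes with a called interaction, under anti-CD40 and saline, for sph/sph and WT; symbols are libraries and lines join the geometric means. In each panel the WT line is steeper than the sph/sph line, and in all panels but that of Wars all sph/sph saline libraries sit above all WT saline libraries. The 6 genes were picked by the interaction that these levels make up, so neither trait is a separate observation.

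The genotypes were also compared under saline. Of the 10 genes, 1 rose in sph/sph against WT under saline, Asns, and none fell, where 1.6% of all genes tested rose, 0.433% fell and 2.04% changed. At an unadjusted p under 0.05 there were 2 of the 10, beside 1817 of all 13844 genes tested. DESeq2 called 2 of the 10, beside 831 of all genes, and limma-voom 0 of the 10. The median log2 fold of the 10 was 0.48, and of all genes 0.01.

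Asns had 5.85, 12.5 and 2.50 CPM in sph/sph saline, against 0.706, 0.605 and 0.887 CPM in WT saline, in the order A to C. Every sph/sph library was above every WT library, though they spread 5.01-fold among themselves. The log2 fold was 3.23 ± 0.63 (9.41-fold; edgeR adjusted p = 0.0296). This call held in 7 of 12 fits that left out 1 library and ended without any 1 of the 3 WT saline libraries or of sph/sph saline A or B, with adjusted p up to 0.147. Without the A libraries the log2 fold was 3.32 (edgeR adjusted p = 0.258). Phgdh had 2.93, 7.48 and 1.22 CPM in sph/sph saline, against 0.513, 0.439 and 0.111 CPM in WT saline. Its groups did not overlap, but it missed the threshold (3.44 ± 0.84; edgeR adjusted p = 0.0721), and DESeq2 called it.

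Atf4 had 112, 115 and 133 CPM in sph/sph saline, against 108, 94.9 and 72.9 CPM in WT saline. The ranges lay next to each other without overlap, and the log2 fold of 0.39 ± 0.18 was not called (edgeR adjusted p = 0.397). Shmt2 had 44.3, 90.4 and 69.1 CPM in sph/sph saline, against 41.3, 48.4 and 46.9 CPM in WT saline (0.58 ± 0.27; edgeR adjusted p = 0.408). Psat1, Atf5, Ddit3, Trib3 and Sesn2 overlapped between the genotypes. Chac1 had 1, 6 and 1 counts in sph/sph saline, against 6, 23 and 18 counts in WT saline, and was not called (edgeR adjusted p = 0.396).

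The libraries of sph/sph saline differed among themselves. Asns, Psat1 and Phgdh were all highest in B and lowest in C. The same order held for hepatocyte, endothelial, dendritic and T and NK cell markers. Those of hepatocytes summed to 2194, 6293 and 1211 CPM in sph/sph saline (A to C), against 3320, 2354 and 1116 CPM in WT saline. The endothelial sums were 2075, 2311 and 1527 CPM, the dendritic sums 27.9, 29.0 and 9.54 CPM and the T and NK cell sums 4.52, 10.3 and 2.62 CPM in these 3 libraries. Macrophage and erythroblast markers had the opposite order. The macrophage sums were 39561, 31698 and 45601 CPM in sph/sph saline. The erythroblast markers had sums of 7159 (A), 4863 (B) and 8205 (C) CPM in sph/sph saline, against 286, 63.8 and 74.2 CPM in WT saline, and all 8 of them rose with the genotype. The part of these cells in the difference of Asns was not tested.

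Under anti-CD40, 1 of the 10 genes was lower in sph/sph than in WT, Atf4, and none was higher. Of all genes tested 6.19% fell, 11.5% rose and 17.7% changed. Atf4 had 174, 133 and 123 CPM in sph/sph anti-CD40, against 214, 227 and 243 CPM in WT anti-CD40. No sph/sph library reached the lowest WT library, with a log2 fold of -0.67 ± 0.18 (edgeR adjusted p = 0.0284). The call held in 7 of 12 fits that left out 1 library, with adjusted p up to 0.103. It ended without WT saline B, WT anti-CD40 B or C or sph/sph anti-CD40 B or C, and without the A libraries (-0.87; edgeR adjusted p = 0.0524). Ddit3 followed at 19.8, 11.8 and 14.2 CPM in sph/sph anti-CD40, against 36.7, 16.8 and 39.7 CPM in WT anti-CD40 (-1.02 ± 0.38; edgeR adjusted p = 0.0904), with overlap through WT B, and DESeq2 called it.

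The member enzymes Asns, Psat1 and Phgdh were not called between the genotypes under anti-CD40. Asns averaged 8.20 ± 4.39 CPM in sph/sph anti-CD40 and 9.39 ± 3.96 in WT anti-CD40, Psat1 45.6 ± 22.3 and 54.5 ± 12.7, and Phgdh 13.5 ± 7.77 and 30.7 ± 14.3 (SD, n = 3 each). Their log2 folds were -0.19, -0.26 and -1.18, with edgeR adjusted p of 0.273 or more. In the same libraries 9 of 10 macrophage markers and all 8 erythroblast markers were higher in sph/sph, and 4 of 8 T and NK cell markers were lower. The erythroblast sum was 11019, 14890 and 4036 CPM in sph/sph anti-CD40 A, B and C, against 183, 44.1 and 30.1 CPM in WT anti-CD40. Their part in the value of Atf4 was not tested. All these comparisons draw on the same 12 libraries, so a gene's values in one are not independent of those in another.

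Beyond the 10 genes, 96 genes in 8 lists describe the wider response, and 94 of them were tested. With anti-CD40 in WT 42 rose and 16 fell, where 19.4% and 19.7% of all genes tested did. In sph/sph 1 rose and none fell, where 0.78% of all genes changed, and 3 interactions were called, all negative, where 4.3% of all genes had one. With 94 genes, the last 2 counts are near the shares over all genes. The shares over all genes are the background for the counts by list that follow, which describe the lists and were not tested. The lists, like the 10 genes, were chosen with earlier results of these data known.

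Upstream of ATF4 stand the 4 eIF2 kinases. Eif2ak1, the heme-regulated kinase HRI, had 94.9 ± 15.5 CPM in sph/sph anti-CD40, 59.9 ± 2.22 in WT anti-CD40, 106 ± 1.48 in sph/sph saline and 91.9 ± 4.70 in WT saline (SD, n = 3 each). It fell with anti-CD40 in WT (-0.62 ± 0.13; edgeR adjusted p = 0.00387) and was higher in sph/sph than in WT under anti-CD40 (0.66 ± 0.13; edgeR adjusted p = 0.00574). Eif2ak4, the amino acid sensor GCN2, did the same (-0.66 ± 0.17 and 0.71 ± 0.17; edgeR adjusted p = 0.0124 and 0.0180). Under anti-CD40 the call of Eif2ak1 ended without the A libraries (edgeR adjusted p = 0.0824), and that of Eif2ak4 without WT anti-CD40 B or C or sph/sph anti-CD40 B. Neither kinase had a called difference between genotypes under saline. Eif2ak2 (PKR) and Eif2ak3 (PERK) were called in no comparison by the edgeR fit of all 12 libraries without a term for sex. With that term, Eif2ak3 was called lower in WT under anti-CD40 than under saline (-0.66; edgeR adjusted p = 0.0378). It was also called in WT in 3 of 12 fits that left out 1 library (edgeR adjusted p down to 0.0288). Eif2ak2 was called for anti-CD40 in 1 of 12 such fits in sph/sph and in 1 of 12 in WT (edgeR adjusted p = 0.0111 and 0.0317). Both calls came when library C of sph/sph anti-CD40 was removed. Ppp1r15a (GADD34), which guides the phosphatase that reverses eIF2 phosphorylation, rose with anti-CD40 in WT to 156 ± 34.8 CPM, against 49.9 ± 12.9 CPM in WT saline (1.65 ± 0.40; edgeR adjusted p = 0.00922). Eif2s1, the alpha subunit of eIF2, rose as well (0.76 ± 0.23; edgeR adjusted p = 0.0266), a call that ended without WT saline A, B or C, WT anti-CD40 A or B, or all A libraries (edgeR adjusted p = 0.166). In sph/sph Ppp1r15a had 196, 183 and 58.4 CPM under anti-CD40, against 96.1, 97.2 and 80.9 CPM under saline, and was not called (0.67 ± 0.39; edgeR adjusted p = 0.341). Of the 12 fits that left out 1 library, only that without sph/sph anti-CD40 C called it (edgeR adjusted p = 0.0180).

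Among 13 aminoacyl-tRNA synthetase and tRNA export genes, 9 rose and none fell with anti-CD40 in WT, beside 19.4% and 19.7% of all genes. Their median log2 fold was 0.74, beside 0.05 over all genes. Wars, the tryptophanyl-tRNA synthetase and also a known interferon-induced gene, had 156, 182 and 69.2 CPM in sph/sph anti-CD40, against 360, 604 and 1027 CPM in WT anti-CD40. Under saline it had 74.1, 66.1 and 54.2 CPM in sph/sph, against 63.2, 64.1 and 52.3 CPM in WT. It rose in WT (3.47 ± 0.44; edgeR adjusted p = 0.000292), was lower in sph/sph under anti-CD40 (-2.29 ± 0.42; edgeR adjusted p = 0.00479) and had a negative interaction (-2.40 ± 0.57; edgeR adjusted p = 0.0434). Yars and Sars, which charge tyrosine and serine tRNAs, were the other two with a called interaction, at -1.21 ± 0.28 and -0.83 ± 0.19 (edgeR adjusted p = 0.0400 and 0.0387). Sars had 97.9 ± 16.6 CPM in sph/sph anti-CD40, 118 ± 6.16 in WT anti-CD40, 91.0 ± 6.76 in sph/sph saline and 61.8 ± 1.88 in WT saline (SD, n = 3 each). The interactions of Wars, Yars and Sars held in 2, 2 and 3 of 12 fits that left out 1 library, and none held without the A libraries.

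Of 11 amino acid transporters, 6 rose and 1 fell in WT, beside 19.4% and 19.7% of all genes. Slc7a11, the cystine importer, had 122, 63.7 and 35.3 CPM in WT anti-CD40, against 0.321, 0.275 and 0.111 CPM in WT saline (8.26 ± 1.68; edgeR adjusted p = 0.00401). In sph/sph anti-CD40 it split by library, at 18.2, 36.4 and 0.0540 CPM in A, B and C, against 0.931, 0.119 and 0.0582 CPM in sph/sph saline, and was not called. In WT saline A, B and C, 3 counts equal 0.193, 0.165 and 0.166 CPM. The size of its fold in WT thus rests on few saline counts. Slc7a1, an arginine and lysine importer, rose in WT (2.7 ± 0.40; edgeR adjusted p = 0.000670). Slc7a6, a transporter of cationic and neutral amino acids, was the one wider gene called in sph/sph, at 9.19, 11.9 and 16.2 CPM under anti-CD40, against 4.46, 4.16 and 3.26 CPM under saline (1.65 ± 0.28; edgeR adjusted p = 0.0307). This call held in 4 of 12 fits, those without WT anti-CD40 A, B or C or sph/sph anti-CD40 C, and not without the A libraries together (edgeR adjusted p = 0.399).

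The other amino acid enzymes divided, with 5 rising and 7 falling of 16 in WT, beside the same shares of all genes. The risers included Mthfd2, a mitochondrial one-carbon enzyme next to SHMT2, at 51.8 ± 11.2 CPM in WT anti-CD40 and 5.58 ± 0.749 CPM in WT saline (3.21 ± 0.45; edgeR adjusted p = 0.000523). Bcat1, a branched-chain aminotransferase, had 240 counts over WT anti-CD40 and 0 over WT saline, which is at least 76.2-fold higher against a floor of 3 counts over the group. The fallers included Cbs, which makes cystathionine from serine and homocysteine (-3.48 ± 0.85; edgeR adjusted p = 0.00951). The list thus moved in both directions, with a median log2 fold of -0.46 (the same with Bcat1 at its bound).

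Of 13 other targets of ATF4 and CHOP, 8 rose and 1 fell with anti-CD40 in WT, beside 19.4% and 19.7% of all genes. Cdkn1a, the cell cycle inhibitor p21, had 498 ± 254 CPM in WT anti-CD40 and 15.3 ± 0.856 CPM in WT saline (5.02 ± 0.71; edgeR adjusted p = 0.000572). The secreted glycoprotein gene Stc2 had 132 counts over WT anti-CD40 and 0 over WT saline, at least 41.9-fold higher. Of 8 partners of ATF4, 2 rose and 2 fell, close to the shares of all genes, with Atf3, a stress-induced repressor, among the risers (1.75 ± 0.52; edgeR adjusted p = 0.0239) and Fosl1 at 75 counts in WT anti-CD40 and 3 in WT saline, a ratio of 23.8 (95% counting interval 7.84 to 118). Neither held in every fit that left out 1 library: that of Atf3 ended without WT saline B or C or WT anti-CD40 C, and that of Fosl1 without any of these or WT anti-CD40 B.

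Neighbouring arms of the stress response were counted in the same way, beside 39.2% of all genes called in WT. Of 17 genes of the XBP1 and ATF6 branches, which serve protein folding in the endoplasmic reticulum, 6 rose and 1 fell in WT, near that share, led by Creld2 (1.80 ± 0.38; edgeR adjusted p = 0.00504) and Manf (1.16 ± 0.34; edgeR adjusted p = 0.0220). The call of Manf ended without WT saline A or B or WT anti-CD40 C. Of 7 mitochondrial stress genes 3 rose and 2 fell, among them the chaperonin pair Hspe1 (2.02 ± 0.34; edgeR adjusted p = 0.00144) and Hspd1 (1.48 ± 0.30; edgeR adjusted p = 0.00379), which rose. Without the A libraries, Slc7a11, Fosl1, Atf3, Hspd1, Creld2, Manf and Ppp1r15a were no longer called in WT (edgeR adjusted p from 0.0534 to 0.132), and the signs of these 7 were kept.

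**Figure D4:**
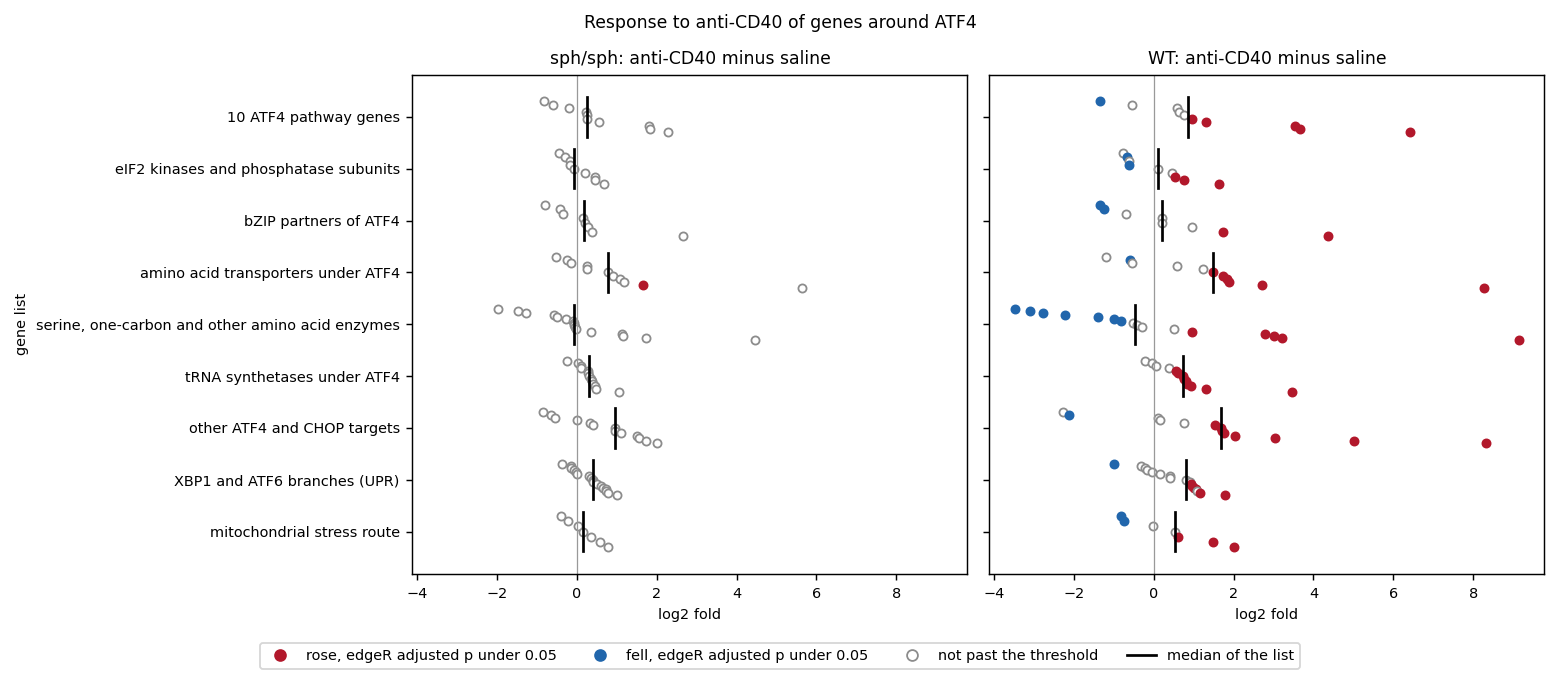
Log2 fold for anti-CD40 against saline of each tested gene of the 10 and of 8 wider lists, in sph/sph and in WT; filled points passed an edgeR adjusted p of 0.05 and vertical bars are list medians. Of the wider genes 1 is filled in sph/sph and 58 are in WT; the points of Bcat1, Stc2 and Fosl1 in WT rest on 0 to 3 saline counts, and where they lie depends on the prior count of the fit.

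Under saline, 6 of 94 wider genes were higher in sph/sph than in WT and none was lower, where 1.6% of all genes rose and 0.433% fell. All 8 erythroblast markers rose in the same comparison, with sums between 4863 and 8205 CPM in sph/sph saline and between 63.8 and 286 CPM in WT saline, and their part in these values was not tested. The 6 genes were Slc43a1, a transporter of large neutral amino acids (5.39 ± 0.63; edgeR adjusted p = 0.00402), Gdf15, a stress-induced cytokine (3.89 ± 0.60; edgeR adjusted p = 0.00970), Slc6a9, a glycine transporter (3.07 ± 0.58; edgeR adjusted p = 0.0264), Gadd45a, a growth arrest gene (2.66 ± 0.46; edgeR adjusted p = 0.0171), Gclm, a subunit of the first enzyme of glutathione synthesis (1.60 ± 0.28; edgeR adjusted p = 0.0171), and Stc2. Gdf15 had 17.5, 18.1 and 7.91 CPM in sph/sph saline, against 1.61, 0.769 and 0.554 CPM in WT saline. Stc2 had 28 counts over sph/sph saline and 0 over WT saline, at least 9.85-fold higher, a call that held in 3 of 12 fits that left out 1 library. Slc43a1 and Slc6a9 had the library order of Asns in sph/sph saline as far as the highest and lowest, at 14.5, 34.7 and 10.6 CPM and at 7.58, 28.0 and 6.63 CPM in A, B and C. Of the 6, the call of Slc43a1 held in all 12 fits, that of Gdf15 ended without WT saline B or C, that of Slc6a9 without WT saline A, B or C, that of Gadd45a without WT saline B or C or sph/sph saline B, and that of Gclm without any WT saline library or sph/sph saline B or C. None of the 6 was called without the A libraries, with edgeR adjusted p from 0.0831 to 0.334.

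Under anti-CD40 the sph/sph level of 10 wider genes was above that in WT and that of 3 was below it. With 94 genes tested, neither count exceeds the share of all genes, 11.5% and 6.19%. Those higher included Slc43a1 (4.41 ± 0.59; edgeR adjusted p = 0.000981), Slc6a9 (2.74 ± 0.57; edgeR adjusted p = 0.00954) and Gclm (1.94 ± 0.28; edgeR adjusted p = 0.00135), which were also higher under saline. Ddit4 (REDD1), another inhibitor of mTORC1, had 196, 206 and 408 CPM in sph/sph anti-CD40, against 16.8, 55.1 and 43.8 CPM in WT anti-CD40 (2.81 ± 0.55; edgeR adjusted p = 0.00723). Gpt2, the mitochondrial alanine aminotransferase, had 56.7, 68.3 and 83.4 CPM in sph/sph anti-CD40, against 16.1, 7.24 and 8.22 CPM in WT anti-CD40 (2.73 ± 0.40; edgeR adjusted p = 0.00170). In both genes no library of one genotype reached the other. Vldlr, a lipoprotein receptor, had 108 counts over sph/sph anti-CD40 and 2 over WT anti-CD40, a ratio of 63.1 (95% counting interval 17.1 to 528), and its call ended without WT anti-CD40 A, B or C or sph/sph anti-CD40 B. The 3 lower genes were Wars, Yars (-0.72 ± 0.20; edgeR adjusted p = 0.0328) and Bcat1 (-2.78 ± 0.67; edgeR adjusted p = 0.0234). The call of Yars ended without sph/sph saline A, WT anti-CD40 B or C or sph/sph anti-CD40 B or C, and that of Bcat1 without WT anti-CD40 B or C or sph/sph anti-CD40 B. Without the A libraries the calls of Vldlr, Bcat1 and Slc6a9 ended (edgeR adjusted p from 0.0629 to 0.0830).

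Across all 12 libraries, and as a description only, the genes whose log2 CPM ran closest to Atf4 were Ccnd3, Pde12 and Gpr162 (Pearson r = 0.96 for each). Closest to Asns were Tspan33 (r = 0.97), Kcnn4 and Slc25a37 (r = 0.96 each). Among the other members, Phgdh ran closest to Atf4 (r = 0.86), and Sesn2 ran opposite (r = -0.85). Phgdh was also the member closest to Asns (r = 0.86), followed by Psat1 (r = 0.83). The 12 points share 4 groups and the same libraries, so these values carry the group differences given above.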

How the data were processed

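RNA was sequenced in bulk as 12 libraries, 4 groups of 3, made with a kit that keeps strand (TruSeq, per the labels' protocols). The values are read counts per gene as deposited by the authors, with no normalization that the values show. Build GRCm38.p5, featureCounts, SAMtools 1.9 and STAR 2.7.0e are named in the submitters' processing notes. The annotation, the use of strand in counting and the handling of multi-mapped reads were not given in the sources used here. Symbols were matched to 25587 of 25700 Ensembl identifiers, and positions are from GENCODE M21 on GRCm38. Libraries are taken as separate animals, since the design text speaks of 3 mice in each group.

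The tests used edgeR 4.0.16 (R 4.3.3). Genes were kept by filterByExpr (13844 genes), scaled by TMM and fitted by robust quasi-likelihood with 1 mean for each group over all 12 libraries, with Benjamini-Hochberg adjustment over all genes tested, called at 0.05. The common biological coefficient of variation was 0.382. Standard errors (log2 fold size over the square root of F) are approximate. CPM use TMM-scaled library sizes; RPKM use the union of annotated exons. A group with 0 counts was set to a floor of 3 counts, and intervals and floors cover counting error only. Alternatives were DESeq2 1.42.0, limma-voom 3.58.1, RLE scaling, no filter, a term for sex, fits of only the groups compared, and fits without single libraries. The fit without the 4 libraries that hold no Y-linked reads was chosen after seeing the data. The calculations were tested on simulated counts.

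The members and the lists were chosen with earlier results of these data known. Genes named are all 10 members, the 4 eIF2 kinases and Ppp1r15a in each comparison, and from the wider lists the 8 called genes with the largest log2 folds per comparison plus up to 2 called genes per list; for Atf4 and Asns, the 3 genes with the highest correlation.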

Additional observations from a re-analysis of the deposited data

Results flagged for a closer look

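For 6 genes of the pathway the response to anti-CD40 differed between sph/sph and WT by the test of the interaction (edgeR, adjusted over all genes), and all 6 values were negative: -1.05 for Atf4, -3.43 for Asns, -4.62 for Phgdh, -0.83 for Sars, -2.40 for Wars and -1.21 for Yars on the log2 scale. Of these, 3 were among the 10 members and 3 among the 94 wider genes tested, where 4.3% of all genes tested had one. In fits that left out 1 library, the calls of Phgdh and Sars held in 3 of 12. Those of Atf4, Asns, Wars and Yars held in 2 of 12, and none held without the A libraries. For Asns, Phgdh, Atf4, Sars and Yars every sph/sph saline library lay above every WT saline library, whereas for Wars these ranges overlapped. Atf4, Wars and Yars were also called lower in sph/sph than in WT under anti-CD40, and Asns, Phgdh and Sars were not. These levels make up the interaction by which the 6 genes were picked, so neither pattern is a separate observation. Erythroblast, macrophage and T and NK cell markers differed between the same groups, and their part in these values was not tested.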

How the results depend on the processing

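No paired analysis was possible because the columns carry no replicate number and the genotypes share only 1 identification number per treatment, so the planned fit with a replicate block was not run. A term for sex kept each count within 1.5 times and lost the calls of Trib3 in WT, of Stc2 for genotype under saline and of the interactions of Phgdh and Wars. Counts are given as genes, members of the 10 and wider genes. DESeq2 called 831 genes, 2 members and 11 wider genes for genotype under saline, 1372, 2 and 6 for anti-CD40 in sph/sph, 2 members for genotype under anti-CD40, and 1393 genes and 9 wider genes for the interaction. Limma-voom called 0 members and 2 wider genes for genotype under saline, 64 genes and 0 wider genes for anti-CD40 in sph/sph, and 1 member for the interaction. Fitting only the groups compared gave 891 genes and 12 wider genes for genotype under saline, 0 and 0 for anti-CD40 in sph/sph, and 735 genes, 0 members and 7 wider genes for genotype under anti-CD40. With no filter the interaction called 1 member. Without the 4 libraries lacking Y-linked reads, which leaves 2 per group, the counts were 13 genes, 0 members and 0 wider genes for genotype under saline, 0 genes and 0 wider genes for anti-CD40 in sph/sph, 2845 genes and 26 wider genes for anti-CD40 in WT, 1174, 0 and 8 for genotype under anti-CD40, and 153, 0 and 0 for the interaction. Leaving out 1 library at a time gave 73 to 539 genes, 0 to 1 members and 1 to 10 wider genes for genotype under saline; 0 to 2372, 0 to 2 and 0 to 27 for anti-CD40 in sph/sph; 3841 to 6583, 5 to 7 and 35 to 65 for anti-CD40 in WT; 1355 to 3408, 0 to 1 and 7 to 18 for genotype under anti-CD40; and 259 to 944, 0 to 2 and 0 to 5 for the interaction. The signs that turned belonged to values not called. Without the libraries lacking Y-linked reads Ddit3 was 0.046 for genotype under saline, Asns -0.40, Shmt2 -0.071 and Eif2ak3 0.048 for anti-CD40 in sph/sph, Chac1 0.0066 (1.16 by limma-voom) and Shmt2 -0.095 for genotype under anti-CD40. The interaction of Eif2ak2 was -0.023 with RLE and with DESeq2, -0.091 with limma-voom and -0.0053 without those libraries. Leaving out 1 library moved Ddit3 from -0.31 to 0.18 for genotype under saline, Asns from -0.29 to 0.97 and Eif2ak3 from -0.45 to 0.062 for anti-CD40 in sph/sph, Chac1 from -1.20 to 0.042 for anti-CD40 in WT, and for genotype under anti-CD40 Chac1 from -0.62 to 0.63, Shmt2 from -0.0070 to 0.41, Asns from -0.72 to 0.20, Trib3 from -0.33 to 0.11, Psat1 from -0.48 to 0.11, Eif2ak3 from -0.18 to 0.33, Ppp1r15a from -0.37 to 0.29 and Eif2ak2 from -0.54 to 0.091, and the interaction of Eif2ak2 from -0.29 to 0.35. The cause was not tested. Chac1 rests on 0 to 23 counts per library.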
